A study of Sus scrofa with 12 samples.

Results

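The genes described here are 6 genes read as marks of tissue macrophages in the pig heart: MSR1, MRC1, C1QA, C1QC, F13A1 and SPI1. They were found by their symbols in the platform's annotation. Each symbol was listed for 1 probe set, so 6 of the 27558 probe sets on the array belonged to them, and all 6 were bright enough to be tested. RNA came from the left ventricle of female pigs aged 13 months, in a series that enrolled 12 animals, 6 per treatment. Paced pigs (EXP) had complete atrioventricular block made with an ablation catheter and a pacemaker in VDD mode, in which ventricular pacing follows the sensed atrial beat. Control pigs (CTL) are called sham in the series text. The labels state that all pigs carried a ventricular lead on the right ventricular septum and an atrial lead on the right atrial appendage, so by that wording the controls carried leads too. The hearts were sampled 6 months later in 2 places, the left ventricular free wall (FW) and the interventricular septum (S). Each region was read on 3 arrays from control and 3 from paced pigs, 12 arrays in 4 groups. Nothing in the labels ties an array to a pig or says whether the RNA of several pigs was pooled, so p-values measure only the spread between these arrays.

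Macrophages live in heart muscle, where they clear dying cells and debris and help to keep the matrix in order. MSR1 (scavenger receptor A) takes up modified lipoproteins and dead material, and MRC1 (the mannose receptor, CD206) takes up sugar-bearing proteins and is typical of resident macrophages. C1QA and C1QC encode 2 of the 3 chains of C1q, which binds immune complexes and dying cells and starts the classical complement pathway, with C1QB as the remaining chain. F13A1 encodes the A chain of coagulation factor XIII, a transglutaminase that cross-links fibrin and is made by macrophages and platelets. SPI1 (PU.1) is the transcription factor that sets the myeloid programme.

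The deposited values are log2 signals, so a difference of 1 is a doubling. Array medians lay between 4.3 and 4.45. Markers of heart muscle cells were bright on every array: the mean of the 8 such genes found by symbol lay between 11.68 and 11.86. Free wall paced array 2 stood apart, at -45.3 on the first principal component of all tested probe sets against -19.2 to 22.3 for the others, with a limma array weight of 0.24 against 0.63 to 1.68. Free wall results that moved most without it are given both ways. The shares of all probe sets above or below 0 come from all 12 arrays only. Both control arrays numbered 1 lay at 27.2 and 24.3 on the second component.

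Among the receptors, MSR1 differed most with pacing, and it did so in the free wall. Its signal read 4.19, 4.34 and 4.21 on the 3 free wall control arrays and 3.43, 3.27 and 3.38 on the 3 free wall paced arrays. The highest paced array was thus well below the lowest control array, and the 3 arrays of each group lay close together. The septum was more mixed, with 4.12, 3.77 and 3.4 in control and 3.75, 3.55 and 3.56 in paced pigs. Septum control therefore spanned almost the whole gap between the free wall groups, and its array 3 reached the level of the paced free wall. By group mean the order was free wall control at 4.25 ± 0.08 (SD, n = 3), septum control at 3.76 ± 0.36, septum paced at 3.62 ± 0.11 and free wall paced at 3.36 ± 0.08. Among neighbours in this order only septum control and septum paced overlapped. Septum control array 3, at 3.4, also lay within the range of free wall paced. MSR1 was a dim probe set, since the 25th percentile of the arrays lay between 2.91 and 3.13, and signals this close to the bottom of the scale understate folds.

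MRC1 gave a different picture. Free wall control arrays read 6.35, 6.45 and 6.29, and free wall paced arrays 6.29, 5.15 and 6.35. A single array, free wall paced array 2, was low, and the other paced arrays lay within the control range. Septum control read 6.41, 6.34 and 5.6, again with 1 low array, and septum paced read 6.46, 6.47 and 6.25. From highest to lowest mean the groups were septum paced (6.39 ± 0.12), free wall control (6.36 ± 0.08), septum control (6.12 ± 0.45) and free wall paced (5.93 ± 0.68), and each overlapped its neighbour.

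The C1q genes were lower in the paced free wall, C1QC more than C1QA. C1QC read 6.31, 6.15 and 6.02 in free wall control and 5.8, 5.15 and 5.61 in free wall paced. Those groups did not overlap, and the lowest value was again that of free wall paced array 2. Septum arrays of C1QC read 6.17, 5.83 and 5.51 in control and 5.96, 5.76 and 5.5 in paced pigs, which is almost the same range. C1QA read 6.3, 6.16 and 6.05 in free wall control and 6, 5.99 and 5.67 in free wall paced. These groups did not overlap either, though the lowest control array (6.05) and the highest paced array (6) lay close together, and the low array here was paced array 3. In septum C1QA lay at 6.41, 6.14 and 6.25 in control and 6.11, 6.31 and 6.29 in paced pigs. Group means of C1QC ran from free wall control (6.16 ± 0.15) through septum control (5.84 ± 0.33) and septum paced (5.74 ± 0.23) to free wall paced (5.52 ± 0.33), with overlap between neighbours. Those of C1QA ran from septum control (6.27 ± 0.14) through septum paced (6.24 ± 0.11) and free wall control (6.17 ± 0.13) to free wall paced (5.89 ± 0.19), and only the last step had no overlap.

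C1QB, the remaining chain, has 2 probe sets on the array and was not among the 6 genes. C1QA, C1QC and C1QB are direct neighbours in RefSeq's pig gene table. The brighter C1QB probe set, 15299098, read 7.05, 7.16 and 6.92 in free wall control and 7.18, 6.39 and 6.5 in free wall paced. Its paced array 1 was thus the highest of the 6, and the groups overlapped. The dim probe set, 15305081, read 3.7 to 4.03 in free wall control and 3.46 to 4.3 in free wall paced. In septum the brighter probe set lay between 6.53 and 7.16 in control and between 6.69 and 7.14 in paced pigs.

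F13A1 varied within every group, and SPI1 within every group except free wall control. F13A1 read 5.02, 5.4 and 5.11 in free wall control and 5.12, 4.76 and 4.63 in free wall paced, so paced array 1 lay inside the control range. Septum arrays of F13A1 ran from 4.58 to 5.57 in control and from 4.97 to 5.58 in paced pigs. Its mean was highest in septum paced (5.26 ± 0.31), followed by free wall control (5.18 ± 0.2), septum control (5.05 ± 0.5) and free wall paced (4.84 ± 0.25), with overlap at each step. SPI1 read 4.37, 4.34 and 4.35 in free wall control, the tightest group of any of the 6 genes. It read 4.25, 4.02 and 3.84 in free wall paced, all below control, though 4.25 lay close to the lowest control array at 4.34. SPI1 was dim too, with a mean of 4.16 over all arrays, whose medians lay between 4.3 and 4.45. Septum SPI1 read 4.52, 4 and 4.23 in control and 3.93, 3.91 and 4.19 in paced pigs, so the groups overlapped there. SPI1 means ran from 4.35 ± 0.02 in free wall control through 4.25 ± 0.26 in septum control to 4.04 ± 0.21 in free wall paced and 4.01 ± 0.16 in septum paced, and neighbours in this order overlapped.

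**Figure D1:**
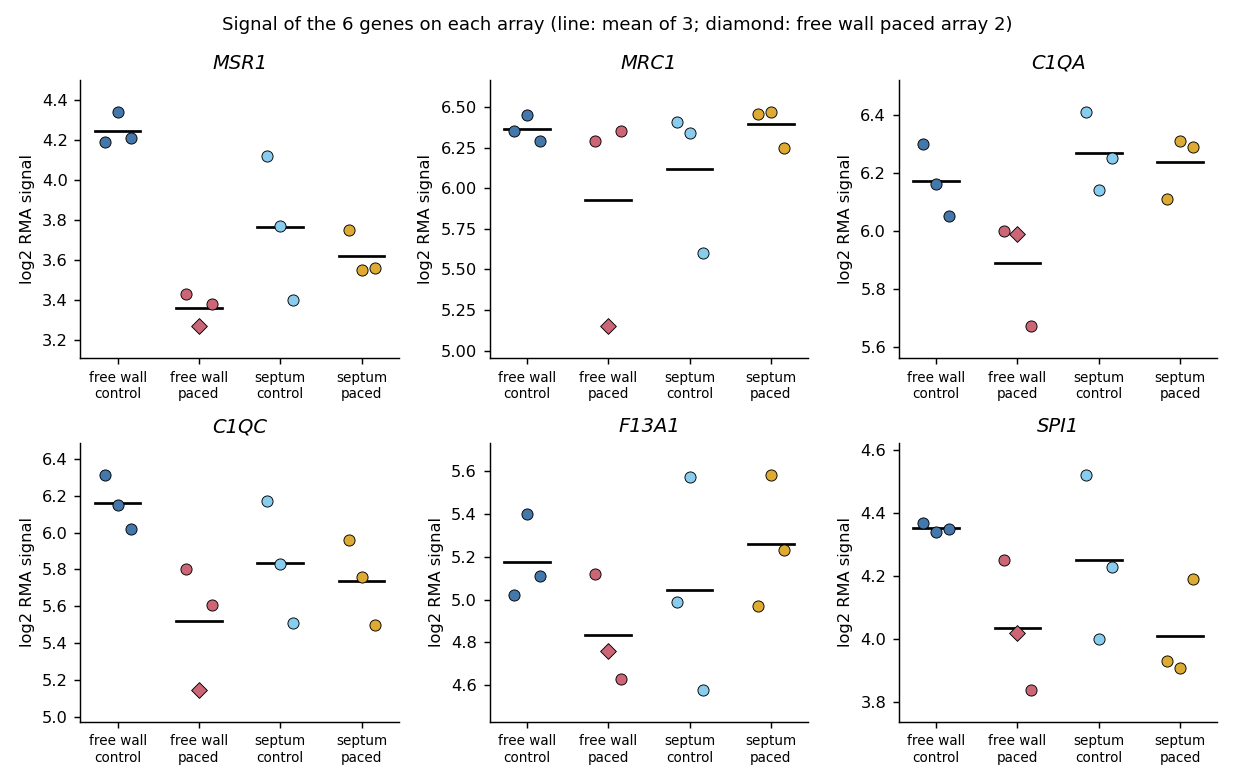
Log2 RMA signal (vertical axis, scaled to each gene) of MSR1, MRC1, C1QA, C1QC, F13A1 and SPI1 on the 12 arrays, by group; each point is 1 array, lines are means of 3 and the diamond is free wall paced array 2. Free wall control and paced arrays do not overlap for MSR1, C1QA, C1QC and SPI1, while the low mean of MRC1 in the paced free wall comes from array 2 at 5.15.

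The question for the free wall, the region away from the lead, was how paced pigs differed from controls. All 6 genes were lower in the paced free wall, by 1.22-fold to 1.85-fold, and none passed the test over all probe sets. The largest difference was that of MSR1, 1.85-fold lower (log2 -0.89, SE 0.16, 95% interval -1.23 to -0.54, limma adjusted p = 0.393); by unadjusted p it ranked 7 of 20668 probe sets. C1QC was 1.56-fold lower (log2 -0.64, SE 0.2, interval -1.08 to -0.2) and C1QA 1.22-fold (log2 -0.28, SE 0.13, interval -0.57 to 0). MRC1 stood at -0.43 (SE 0.29), F13A1 at -0.34 (SE 0.24) and SPI1 at -0.32 (SE 0.15), with intervals that included 0. For the latter 3 genes, C1QA and C1QC the limma adjusted p was 0.998. C1QB stood at -0.35 (SE 0.22) by its bright and at -0.11 (SE 0.22) by its dim probe set. In bulk tissue, fewer cells of a type and less RNA per cell cannot be told apart.

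By limma, 0 of the 6 genes passed at an adjusted p under 0.05, against 0.00484% of all probe sets called lower in this comparison. At an unadjusted p under 0.05, 2 were lower (MSR1 and C1QC) and 0 higher, where 2.59% of all probe sets were lower and 1.96% higher. Groups did not overlap for 4 of the 6, all lower, where 4.52% of probe sets were lower and 3.63% higher without overlap. The median of the 6 log2 differences was -0.39, against 0 over all probe sets, of which 49.5% were below and 50.3% above 0. The genes were taken up with earlier results of these arrays known, so this excess over the background is a description.

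In septum, the region next to the lead, 4 of the 6 genes were below 0 and 2 above with pacing, where 50.3% of probe sets were below and 49.3% above 0. MSR1 stood at -0.14 (SE 0.16, interval -0.49 to 0.2), SPI1 at -0.24 (SE 0.15), C1QC at -0.1 (SE 0.2) and C1QA at -0.03 (SE 0.13). MRC1 stood at 0.28 (SE 0.29) and F13A1 at 0.21 (SE 0.24), and both rested on septum control array 3: without it they stood at 0.02 and -0.02. The median of the 6 genes was -0.06, or 0.06 without septum control array 1 and -0.14 without array 3. The limma adjusted p-values lay between 0.992 and 0.997, and 0 of 6 passed, where 0.00968% of all probe sets were called. At an unadjusted p under 0.05 the count was also 0, against 2.32% of all probe sets lower and 2.33% higher. No gene had septum groups that did not overlap (0 of 6, against 4.78% of probe sets lower and 5.76% higher). The septum intervals of MSR1 and C1QC reached down to -0.49 and -0.54, beside free wall estimates of -0.89 and -0.64. Without free wall paced array 2 the free wall estimate of C1QC, -0.46, lay inside its septum interval. The free wall estimates have errors of their own, so the regions are compared directly in the next paragraph.

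The series asked how both regions differ in their response, which the difference between the pacing effects (septum minus free wall) measures. It was above 0 for all 6 genes, with a median of 0.55 (0.34 without free wall paced array 2, 0.35 without septum control array 3), where 51.5% of all probe sets were above and 48.3% below 0. MSR1 had the largest, 0.74 (SE 0.22, interval 0.25 to 1.23, unadjusted p = 0.00648, limma adjusted p = 0.999). MRC1 stood at 0.71 (SE 0.41), F13A1 at 0.55 (SE 0.34), C1QC at 0.54 (SE 0.29), C1QA at 0.25 (SE 0.18) and SPI1 at 0.08 (SE 0.21). Intervals of these 5 genes included 0. By limma 0 of 6 passed, as did 0% of all probe sets, and 1 of 6 lay above 0 and 0 below at an unadjusted p under 0.05, against 1.43% and 1.32% of probe sets. The 6 positive values share the same free wall arrays, so they are not 6 separate observations of a regional difference.

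**Figure D2:**
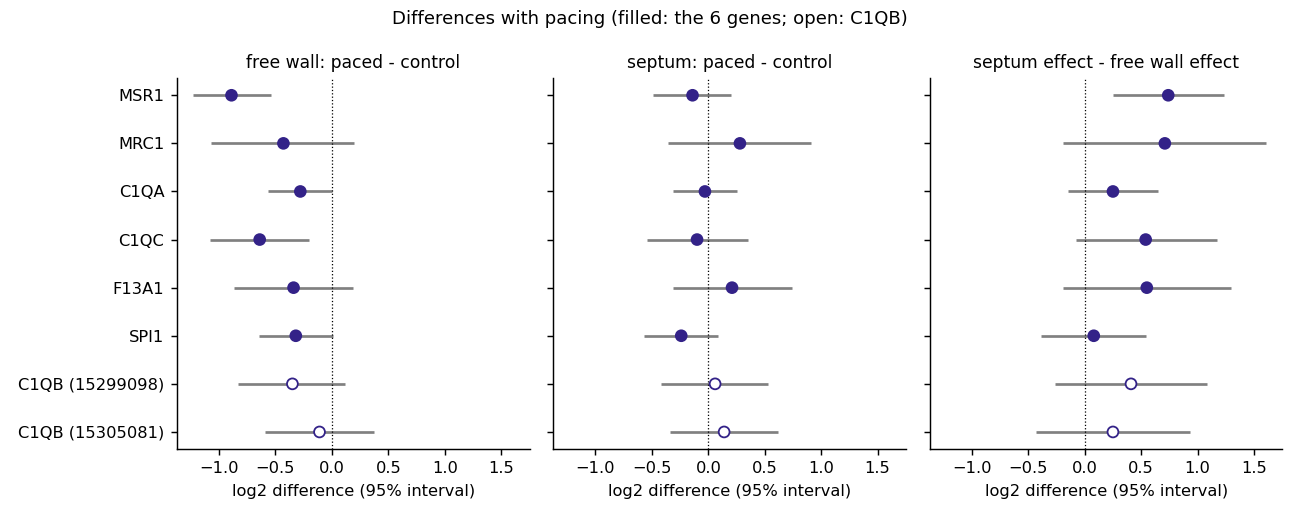
Log2 differences (points) with 95% intervals (lines) for pacing in the free wall, pacing in septum and the difference between both effects, for the 6 genes (filled) and the 2 probe sets of C1QB (open). All 6 genes lie left of 0 in the free wall panel, from -0.89 for MSR1 to -0.28 for C1QA, and between -0.24 and 0.28 in the septum panel.

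Between regions of control pigs, septum was lower than free wall for 5 of the 6 genes and higher for 1, where 47.1% of probe sets were lower and 52.7% higher. MSR1 led with 1.4-fold lower (log2 -0.48, SE 0.16, interval -0.83 to -0.14, limma adjusted p = 0.997), and its groups did not overlap (1 of 6, against 5.77% of all probe sets lower and 7.34% higher). Without septum control array 3, MSR1 stood at -0.3, C1QC at -0.16 and MRC1 at 0.01. With all arrays C1QC stood at -0.32 (SE 0.2), MRC1 at -0.25 (SE 0.29), F13A1 at -0.13 (SE 0.24), SPI1 at -0.1 (SE 0.15) and C1QA at 0.1 (SE 0.13). Over all tested probe sets, control arrays of the same number deviated together weakly (r = 0.32, 0.25 and 0.24). The labels do not tie them to the same pig, so they are not known to be pairs. Within numbers 1, 2 and 3, septum minus free wall was -0.07, -0.57 and -0.81 for MSR1, and -0.14, -0.32 and -0.51 for C1QC. It was 0.06, -0.11 and -0.69 for MRC1. Thus both MSR1 and C1QC were lower in septum in all 3 numbers, by very different amounts. By limma 0 of 6 passed (0% of all probe sets), and 1 of 6, MSR1, was lower at an unadjusted p under 0.05, against 1.55% of probe sets lower and 2.12% higher.

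In paced pigs 5 of 6 genes were higher in septum than in free wall and 1 was lower, where 51.6% of probe sets were higher and 48% lower. C1QA was 1.27-fold higher (log2 0.35, SE 0.13, interval 0.07 to 0.63, limma adjusted p = 0.654), with septum arrays from 6.11 to 6.31 above free wall arrays from 5.67 to 6. MSR1 stood at 0.26 (SE 0.16), and its septum arrays (3.55 to 3.75) were also all above its free wall arrays (3.27 to 3.43). These were the 2 of 6 genes without overlap, against 6.44% of all probe sets higher and 3.47% lower. MRC1 stood at 0.46 (SE 0.29), F13A1 at 0.42 (SE 0.24), C1QC at 0.22 (SE 0.2) and SPI1 at -0.03 (SE 0.15). By limma 0 of 6 passed (0% of all probe sets), and 1 of 6, C1QA, was higher at an unadjusted p under 0.05, against 4.3% of probe sets higher and 2.43% lower.

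Free wall paced array 2 bore unequally on the 6 genes. Without it the free wall pacing difference of MRC1 was -0.04 (SE 0.21) in place of -0.43, and that of C1QC -0.46 in place of -0.64. MSR1 stood at -0.84 (unadjusted p = 0.000681, limma adjusted p = 0.538), C1QA at -0.34, F13A1 at -0.3 and SPI1 at -0.31. The C1QB probe sets stood at -0.2 and 0.06. All 6 thus stayed below 0, MRC1 barely. The difference between the effects became 0.32 for MRC1 and 0.36 for C1QC, and 0.7 for MSR1. Septum against free wall in paced pigs became 0.07 for MRC1 and 0.04 for C1QC, with a median over the 6 genes of 0.14 in place of 0.3. Leaving out any 1 of the 12 arrays kept MSR1 in the free wall between -0.92 and -0.84, MRC1 between -0.64 and -0.04, C1QC between -0.78 and -0.46, C1QA between -0.34 and -0.18, F13A1 between -0.48 and -0.23 and SPI1 between -0.42 and -0.22.

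**Figure D3:**
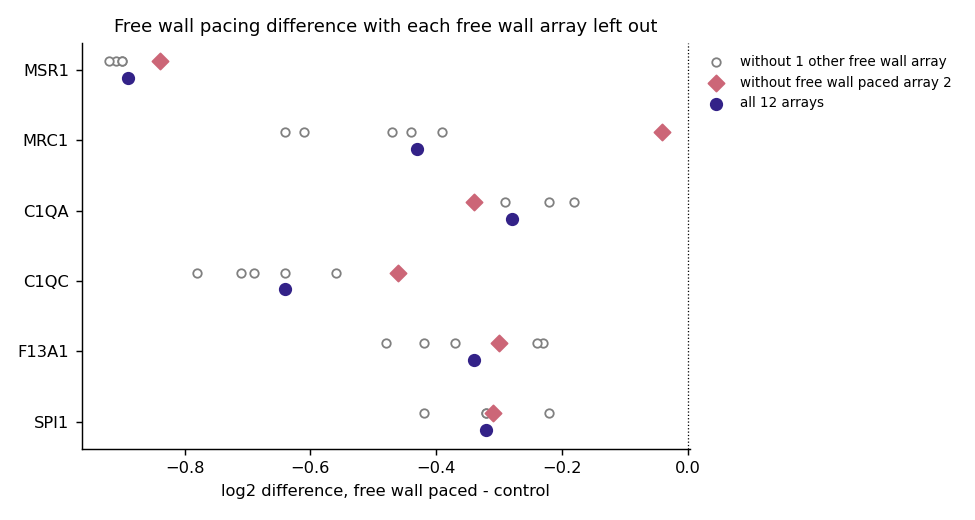
Free wall pacing difference (log2, horizontal axis) of each gene with all 12 arrays (filled circles), without free wall paced array 2 (diamonds) and without each other free wall array (open circles). MSR1 stays near -0.89 whichever array is left out, and MRC1 moves from -0.43 to -0.04 without paced array 2.

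As a summary per array, the mean deviation of the 6 genes from their own means over the 12 arrays was 0.23, 0.28 and 0.15 in free wall control and -0.04, -0.47 and -0.28 in free wall paced. In septum it was 0.25, 0.08 and -0.26 in control and 0.01, 0.07 and -0.02 in paced pigs. Septum control array 3 was thus about as low as free wall paced array 3 on this measure, with 4 of the 6 genes below their means. All 6 genes were below their means on free wall paced array 2 and 5 of 6 on array 3.

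The genes did not vary as a block. Over the 12 arrays, which share the groups and the normalisation, Pearson's r was 0.88 between MSR1 and C1QC (0.77 after taking out group means) and 0.75 between MRC1 and C1QC. The value for MRC1 and C1QC was 0.53 without free wall paced array 2. C1QA went less with its partner chain, at r = 0.37 with C1QC, and most with SPI1 (0.53). F13A1 and SPI1 had r = 0. These values describe 12 arrays and carry no test. Among 9500 other named genes, the one most like MSR1 was C1QC. The gene most like C1QC was LOX, the lysyl oxidase that cross-links collagen (r = 0.93), followed by the complement protease gene C1R (0.91). LOX was also among the 3 genes most like MSR1 (0.84), with CDKN2AIP (0.85). MRC1 was closest to CHIC2, BLOC1S2 and TRMT11 (0.97, 0.96 and 0.96, but 0.9, 0.88 and 0.88 without free wall paced array 2). C1QA was closest to ANKRD33B, R3HDM4 and CD63 (0.9, 0.89 and 0.88), F13A1 to LIPC, SNX19 and SPCS3 (0.86, 0.85 and 0.83), and SPI1 to RAPGEFL1, PTN and CHP1 (0.86, 0.83 and 0.82).

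Other macrophage and monocyte markers were read beside the 6 genes. Of 30 listed, 21 were found by symbol or synonym and 18 were tested. In the paced free wall 11 of the 18 were below 0 (median -0.13), where 49.5% of all probe sets were. By limma 0 passed, and 1 was lower at an unadjusted p under 0.05, against 2.59% of all probe sets. That one was CYBB, the catalytic subunit of the phagocyte NADPH oxidase, listed under its older name GP91-PHOX, at -0.55 (SE 0.2), or -0.25 without free wall paced array 2. LGMN, a lysosomal protease, stood at -0.35 (SE 0.17), FOLR2, a folate receptor of resident macrophages, at -0.39 (SE 0.23), and MPEG1, a pore-forming protein of phagocytes, at -0.34 (SE 0.2). The growth factor receptor CSF1R, which macrophages need to survive, stood at -0.19 (SE 0.11), CD14 at 0.05 (SE 0.13) and AIF1 at -0.15 (SE 0.25). Without free wall paced array 2, CD14 stood at -0.02, AIF1 at 0.01 and MPEG1 at -0.48. Then 14 of the 18 genes were below 0 (median -0.14), but the share of all probe sets was not computed without that array. In septum 9 of 18 were below 0 (median 0.01), where 50.3% of all probe sets were, with CYBB at 0.23 and LGMN at 0.28. At an unadjusted p under 0.05, 1 was higher there and 0 lower, against 2.33% and 2.32% of probe sets. That gene was MERTK, named after its values were seen, at 0.47 (SE 0.18, limma adjusted p = 0.992). In the free wall MERTK stood at 0.07 (SE 0.18), or 0.26 without free wall paced array 2. For the difference between the effects 13 of 18 were above 0 (median 0.19), where 51.5% of all probe sets were. CYBB led at 0.78 (SE 0.28, or 0.49 without that array), followed by LGMN at 0.63 (SE 0.25). The mean level of the 21 genes lay between 4.48 and 4.67 in free wall control, 4.39 and 4.53 in free wall paced, 4.41 and 4.61 in septum control, and 4.47 and 4.62 in septum paced. ADGRE1, TIMD4 and LYZ were under the filter for dim probe sets, and CD68 and CD163 were not analysed here.

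Other genes of the classical complement pathway and its regulators were read around C1q. Of 17 tested, 11 were below 0 in the paced free wall (median -0.23), or 15 of 17 without free wall paced array 2. Over all probe sets 49.5% were below 0 there. By limma 0 passed, and 3 were lower at an unadjusted p under 0.05, against 2.59% of all probe sets. In the paced septum 10 were below 0 (median -0.06), where 50.3% of all probe sets were. C1R, a protease that C1q activates, stood at -0.41 (SE 0.16) in the free wall and -0.22 in septum. SERPING1, the inhibitor of C1, stood at -0.42 (SE 0.19) and -0.38, and C8G, of the membrane attack complex, at -0.22 (SE 0.1) and -0.23. Without free wall paced array 2, C1R stood at -0.26 and SERPING1 at -0.24 in the free wall. Clusterin, CLU, which restrains complement and binds misfolded proteins, had the largest estimate, at -1.3, but with an SE of 0.74 and overlapping arrays. Without free wall paced array 2 CLU stood at -1.08. The differences between the regions' effects were 0.18 for C1R, 0 for C8G, 0.04 for SERPING1 and 0.15 for CLU, or 0.03, 0.04, -0.14 and -0.07 without free wall paced array 2. The 1 complement gene of this list with an unadjusted p under 0.05 for that difference was MASP1, a protease of the lectin pathway, named after its values were seen. It stood at -0.55 (SE 0.35) in the free wall and 0.61 (SE 0.35) in septum, a difference of 1.16 (SE 0.5, limma adjusted p = 0.999). Between regions of paced pigs MASP1 was higher in septum by 1.5 (SE 0.35, limma adjusted p = 0.439), with septum arrays at 7.54, 7.9 and 7.46 all above free wall arrays at 6.65, 5.96 and 5.79. Of the 17 genes, 1 was higher and 0 lower without overlap, against 6.44% and 3.47% of all probe sets. Other related lists held such genes too. They were 1 of 18 macrophage and monocyte markers (LGMN, higher by 0.68), 1 of 14 scavenger and mannose receptor genes (higher), and 3 higher and 1 lower of 10 coagulation genes.

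Relatives of MSR1 and MRC1 lay on both sides of 0 in the paced free wall, and their balance depended on free wall paced array 2. Of 14 tested genes of the scavenger and mannose receptor families, 4 were below 0 there (median 0.04), against 49.5% of all probe sets. By limma 0 passed, and 0 at an unadjusted p under 0.05. CLEC4G stood at 0.18 (SE 0.17), STAB1, a scavenger receptor of macrophages and endothelium, at -0.11 (SE 0.11), the lectin CD209 at 0.41 (SE 0.41) and SCARA5 at -0.23 (SE 0.29). The share of all probe sets below 0 was not computed without free wall paced array 2. The count below 0 without it was 8 of 14 (median -0.06), with CLEC4G at 0.04, CD209 at 0.59 and SCARA5 at -0.48. Their differences between the effects were -0.36 for CD209, -0.35 for CLEC4G, -0.2 for SCARA5 and 0.11 for STAB1, or -0.54, -0.2, 0.05 and 0.1 without that array.

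Among 11 tested genes of myeloid transcription factors and colony stimulating factor signalling, the wider set of SPI1, 6 were below 0 in the paced free wall (median -0.01), or 8 without free wall paced array 2 (median -0.24). Over all probe sets 49.5% were below 0. By limma 0 passed, and at an unadjusted p under 0.05 there was 1 lower and 1 higher, against 2.59% and 1.96% of all probe sets. CSF1, the growth factor of macrophages, stood at -0.3 (SE 0.13), and CSF3, the growth factor of neutrophils, at 0.44 (SE 0.17), or 0.29 without free wall paced array 2. RUNX1, a transcription factor of blood cell formation, stood at -0.15 (SE 0.15), or -0.26 without that array. The difference between the effects was -0.75 (SE 0.25) for CSF3, 0.13 for CSF1, 0.12 for CSF1R and 0.1 for RUNX1, or -0.6, 0.21, 0.17 and 0.22 without it. Of 10 tested genes of coagulation, fibrin and transglutaminases, the wider set of F13A1, 3 were below 0 (median 0.08, or 0.04 without that array). By limma 0 passed, and 1 was higher at an unadjusted p under 0.05, against 1.96% of all probe sets. Coagulation factor F5 stood at 0.72 (SE 0.26), or 0.97 without free wall paced array 2. Its paced array 1 was high at 4.88 against 3.55 and 3.77. The plasminogen activator PLAT stood at 0.42 (SE 0.26), VWF at 0.16 (SE 0.15) and PLG at 0.21 (SE 0.25), or -0.08 without free wall paced array 2. Their differences between the effects were -0.75 for F5, -0.02 for PLAT, 0.16 for VWF and -0.04 for PLG, or -1.01, -0.15, 0.11 and 0.25 without it.

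**Figure D4:**
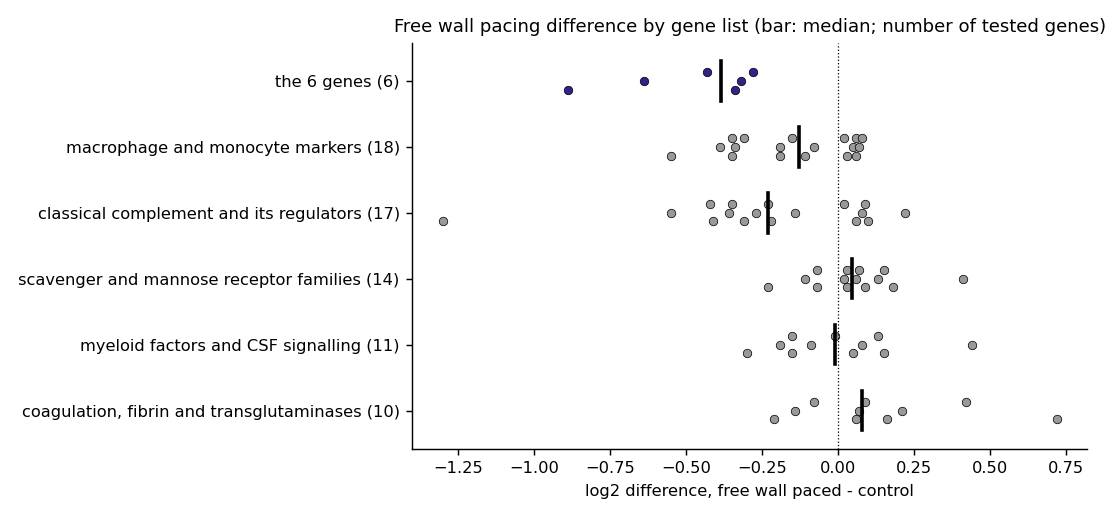
Free wall pacing difference (log2, horizontal axis) of the 6 genes and of the tested genes of 5 related lists (1 point per gene, bar: median, number of genes in brackets). The medians are -0.39 for the 6 genes, -0.13 for macrophage and monocyte markers, -0.23 for complement and 0.04 for the scavenger and mannose receptor families.

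Markers of other cells were read beside these results, and their part in them was not tested. Over all probe sets 50.3% were above 0 in the paced free wall. In the paced free wall, 8 of 10 fibroblast markers were above 0 (median 0.14), as were 6 of 8 cardiomyocyte markers (0.07), 3 of 7 vascular endothelial markers (0), 3 of 5 lymphatic and endocardial markers (0.06), and 7 of 11 markers of T, B and NK cells (0.04). Without free wall paced array 2, the T, B and NK cell median was -0.11, with 6 of 11 below 0, and the vascular endothelial median was 0.09, with 1 of 7 below 0. The lymphatic and endocardial median was then 0.12 and the cardiomyocyte median 0.03. Of the lists with few tested genes, 4 of 4 dendritic cell markers, 1 of 3 neutrophil, 1 of 3 mast cell, 2 of 3 platelet and 1 of 2 red cell markers were above 0. Without free wall paced array 2, the platelet median was -0.12 in place of 0.02, with 3 of 3 below 0. The mast cell median was 0.03 in place of -0.2, the red cell median -0.1 in place of 0.2, the neutrophil median -0.26 in place of -0.1 and the dendritic cell median 0.02 in place of 0.11. None of these markers passed by limma (0 in each list). At an unadjusted p under 0.05 there were 3: the fibroblast gene LUM at 0.7, the mast cell gene HDC at 0.31 and the endocardial gene NPR3 at -0.53. Without free wall paced array 2, LUM stood at 0.84 and NPR3 at -0.27. Of all probe sets, 2.59% were lower and 1.96% higher at that threshold. The neutrophil genes S100A8 and S100A9 and the platelet genes PPBP, GP1BA and TUBB1 were under the filter. The mean level of fibroblast markers lay between 6.99 and 7.85 in free wall control and between 7.6 and 7.77 in free wall paced. For platelet markers, which bear on F13A1, it lay between 2.94 and 3.19 and between 2.84 and 3.29.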

How the data were processed

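Each sample is 1 Affymetrix array, hybridised with biotin-labelled total RNA (Trizol extraction). Per the submitters' processing notes, the authors used Expression Console 1.4 and RMA, and the deposited values are log2 signals. RMA corrects background, makes the arrays' distributions equal and summarises probes, which compresses differences of dim probe sets. No genome build or annotation was found in the labels used here. A table of GEO's platform annotation gave 1 symbol for 13323 of 27558 probe sets, several for 357 and none for 13878. Symbols were updated through RefSeq for 7, and synonyms and neighbours were read from RefSeq.

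Probe sets in the lowest 25% by mean (under 3) were left out, and 20668 were tested (limma 3.58.1, R 4.3.3). The fit held all 12 arrays and a mean per group, and tests were two-sided, with Benjamini-Hochberg adjustment. Arrays have no count depth, and 3 per group limit the precision. The code was tested on simulated data. In control pigs, free wall and septum arrays that carry the same number departed from their group means together, weakly (r = 0.32, 0.25 and 0.24 over the tested probe sets). They did not in paced pigs (0.09, -0.17 and -0.18). Control and paced arrays of the same number gave 0.01, 0.09 and 0.22 in septum, and -0.2, -0.14 and 0.04 in the free wall.

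The members and the 15 gene lists (238 genes, 150 found by symbol or synonym, 120 tested) were chosen with earlier results of these data known. A gene that was not found may still be on the array, since 13878 probe sets had no symbol. A gene with several probe sets was read by the brightest. All members were named in every comparison. For each related list, the 4 genes with the smallest p for pacing in the free wall were named, with CD14, AIF1 and CSF1R. MASP1 and MERTK were added after their values were seen. The rule asked for 4 names from lists of other cell types too; those lists are given as counts, with genes at an unadjusted p under 0.05. The 3 genes most like each member had the highest Pearson's r among 9500. Alternatives were other filters, scalings, weights and fits, a replicate block, and leaving out each array. Figures were drawn with matplotlib 3.10.9.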

Additional observations from a re-analysis of the deposited data

Results flagged for a closer look

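The MSR1 estimates between regions had opposite signs in the 2 treatments. Septum minus free wall was -0.48 in control pigs, or -0.3 without septum control array 3. In paced pigs it was 0.26, with an interval that included 0 (-0.09 to 0.61). Every septum control array (3.4 to 4.12) was below every free wall control array (4.19 to 4.34), and every septum paced array (3.55 to 3.75) was above every free wall paced array (3.27 to 3.43). Without overlap, 5.77% of all probe sets were lower in septum in control pigs and 6.44% higher in paced pigs. The contrast between the 2 treatments, which is the same as the difference between the pacing effects, gave 0.74 on the log2 scale (SE 0.22, unadjusted p = 0.00648). It did not pass (limma adjusted p = 0.999). Without 1 array at a time it lay between 0.56 and 0.92.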

How the results depend on the processing

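No member was called in any comparison under any alternative that was run (0 each), and the lowest limma adjusted p for a member was 0.155, for MSR1 in the free wall. All 6 genes kept their direction in the paced free wall in 118 values; the filter that left out the lowest 50% dropped MSR1 and SPI1. With 1 array left out, directions turned for the dim C1QB probe set in the free wall (-0.36 to 0.06). In septum they turned for MSR1 (-0.32 to 0.04), C1QA (-0.09 to 0.04), C1QC (-0.26 to 0.07), F13A1 (-0.02 to 0.48) and C1QB (-0.12 to 0.2 and -0.06 to 0.3). They turned for SPI1 in the difference of effects (-0.05 to 0.21) and between regions of paced pigs (-0.12 to 0.08). Between regions of control pigs they turned for MRC1 (-0.39 to 0.01), SPI1 (-0.24 to 0.02), F13A1 (-0.39 to 0.1) and C1QB (-0.31 to 0.01 and -0.05 to 0.11). The extremes for MSR1, C1QC and MRC1 here came from leaving out septum control array 1 or 3.

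Counts of called probe sets over the whole table moved, none of them members. In the free wall (1 called) the count was 0 with only the arrays compared, 2 with array weights, and 0 to 1 with 1 array left out: it was 0 without any 1 array other than free wall paced arrays 2 and 3. In septum (2 called) it was 1 with only the arrays compared. It was 4 when septum paced array 2 was left out, and 1 when array 3 of that group, array 2 of the free wall controls, or array 2 or 3 of either the paced free wall or the septum controls was. Between regions of paced pigs (0 called) it was 0 to 7, with 7 without septum paced array 2. With the label number as a replicate block the counts were 0, 1 and 1 in the same order, and MSR1 between regions of control pigs stood at -0.48 (SE 0.15, limma adjusted p = 0.988); the block changed no member's call. The cause of these moves was not tested.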
